A study of Mus musculus with 6 samples.

Results

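The enzymes that add acetyl groups to proteins, the enzymes that remove them and the bromodomain proteins that read them were examined in mouse colorectal tumors with and without Trp53 in the epithelium. The members were the rows whose gene name begins with Kat, Hdac, Sirt or Brd followed by a digit, together with Ep300, Crebbp, Hat1, Ncoa1, Ncoa3, Naa10, Naa50 and Nat10. This gave 47 of the 54167 rows of the expression table. RNA-seq was made from 6 dissected colorectal tumors of C57BL/6J mice, 3 labelled Trp53fl/fl and 3 labelled VP. Both genotypes carry floxed Trp53 alleles, and VP mice also carry Pvillin-Cre, which deletes Trp53 in intestinal epithelial cells, so that stromal and immune cells of a VP tumor keep the gene. All mice received azoxymethane (AOM, 10 mg/kg), a carcinogen, from 8 weeks of age and then drank 2.5% dextran sulfate sodium (DSS), an irritant of the colonic epithelium, in 7-day cycles, and tumors were taken on day 98. No group without AOM/DSS and no group with Cre alone was analysed here. The labels number the tumors but do not state that they came from separate mice, so p-values measure only the spread between these samples.

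Acetylation of lysines neutralises their positive charge, which loosens histones from DNA and changes the activity or stability of many other proteins. Acetyltransferases take the acetyl group from acetyl-CoA, zinc-dependent deacetylases hydrolyse it off again, and sirtuins remove it at the expense of NAD. Bromodomains bind acetylated lysine and bring remodelers or elongation factors to open chromatin, and in the intestine these enzymes act in the control of proliferation, differentiation and inflammation. KAT2B is the acetyltransferase at the centre of the study, and its paralog KAT2A takes its place in the same SAGA and ATAC complexes.

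The promoters of Kat2b and Kat2a are shown because this paralog pair is the one the study turns on, and that of Brd9 because it had the smallest p-value among the members. Each runs from 250 bases before to 50 bases after the RefSeq transcription start, 5′ to 3′ on the gene's strand, in GRCm38.p6. Capitals mark matches, on either strand, to the GC box GGGCGG, the CCAAT box, the TATA box TATAAA, the E-box CACGTG or the p53 half-site.

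Kat2b, chr17:53566721-53567020, plus strand: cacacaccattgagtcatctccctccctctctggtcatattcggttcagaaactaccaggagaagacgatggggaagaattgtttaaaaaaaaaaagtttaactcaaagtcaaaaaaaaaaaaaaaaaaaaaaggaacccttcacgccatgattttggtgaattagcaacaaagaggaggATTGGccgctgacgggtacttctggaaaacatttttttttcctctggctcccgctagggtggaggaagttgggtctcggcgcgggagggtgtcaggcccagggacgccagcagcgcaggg

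Kat2a, chr11:100712418-100712717, minus strand: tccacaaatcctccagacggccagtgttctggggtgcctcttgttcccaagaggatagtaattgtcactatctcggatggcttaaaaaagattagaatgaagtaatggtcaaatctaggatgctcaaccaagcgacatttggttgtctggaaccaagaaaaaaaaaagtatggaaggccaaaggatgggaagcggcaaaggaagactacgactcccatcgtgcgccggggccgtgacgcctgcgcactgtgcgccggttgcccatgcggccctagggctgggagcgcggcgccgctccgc

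Brd9, chr13:73937561-73937860, plus strand: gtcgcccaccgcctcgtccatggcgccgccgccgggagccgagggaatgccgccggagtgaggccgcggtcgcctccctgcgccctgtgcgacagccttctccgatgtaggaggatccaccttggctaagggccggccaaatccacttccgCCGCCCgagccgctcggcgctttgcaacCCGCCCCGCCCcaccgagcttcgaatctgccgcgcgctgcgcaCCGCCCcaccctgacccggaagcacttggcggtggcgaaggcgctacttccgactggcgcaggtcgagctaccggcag

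The Kat2b window holds 47.0% G and C and a single match, an inverted CCAAT box that starts 70 bases before the start. Its RefSeq start lies 110 bases from the start that GENCODE gives. The Kat2a window, with 54.3% G and C, holds none of these motifs. The Brd9 window, with 72.0% G and C, holds 4 GC boxes, which start 99, 71, 66 and 28 bases before the start, and the middle pair shares a base. Of 32851 RefSeq promoters of this length, 35.7% held a GC box, 37.4% a CCAAT box, 13.6% a TATA box, 7.2% an E-box and 8.4% a p53 half-site. RefSeq promoters were matched to 35 of the 42 members that were expressed and tested, of which 23 held a GC box, 13 a CCAAT box, 2 a TATA box, 4 an E-box and 2 a p53 half-site. A match describes letters in the window and not a bound site.

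The genotype labels were first checked on Trp53, which stood at 124.94, 99.30 and 147.45 TPM in the Trp53fl/fl group against 38.45, 32.79 and 27.83 TPM in the VP group (log2 fold change -1.87, limma adjusted p = 0.0207). TPM is a transcript abundance that was divided by transcript length and scaled to a fixed total in each tumor, so that levels can be compared between genes while sequencing depth remains unknown. Fold changes are given as VP minus Trp53fl/fl on the log2(TPM + 1) scale, a scale on which changes of weakly expressed genes look smaller than they are. Of the 15117 genes that reached 1 TPM in 3 or more tumors, 25 had a limma adjusted p under 0.05, 13 lower and 12 higher in VP tumors. This split was 35 lower and 12 higher after centring on 12 epithelial marker genes, 9 and 13 after median-of-ratios rescaling, which aligns the typical gene between tumors, and 5 and 12 after centring within transcript length quartiles. Tumors of the same genotype correlated at 0.9595 to 0.9737 over these genes and tumors of different genotypes at 0.948 to 0.9697. Epithelial markers (12 of 12 tested) summed to 10780 to 11280 TPM in the Trp53fl/fl tumors and 12320 to 13470 TPM in VP tumors, so the tissue label held in all 6 tumors. In such whole tumors, fewer cells of a type and less RNA per cell cannot be told apart.

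Among the 47 members, 42 were expressed above the filter and tested. The tested members were mostly well expressed, with a median level of 22.3 TPM against 15.2 TPM for all genes tested. They varied little within a genotype, with a median SD of 0.155 on the log2 scale against 0.211. None of the 42 passed the adjustment, which 0.165% of all genes passed. At an unadjusted limma p under 0.05 there were 8 members, all lower in VP tumors (19.05% of the 42), where 8% of all genes were lower and 4.51% higher at that level. In 10 members every VP tumor lay below every Trp53fl/fl tumor (23.81%), and in none did every VP tumor lie above, where 13.3% of all genes lay wholly below and 6.03% wholly above. The 10 were Brd1, Brd2, Brd3, Brd7, Brd8, Brd9, Ep300, Crebbp, Kat6a and Kat6b. The median log2 fold change of the 42 members was -0.09, close to the -0.07 of all genes tested, and single members ranged from -0.46 to 0.28.

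**Figure D1:**
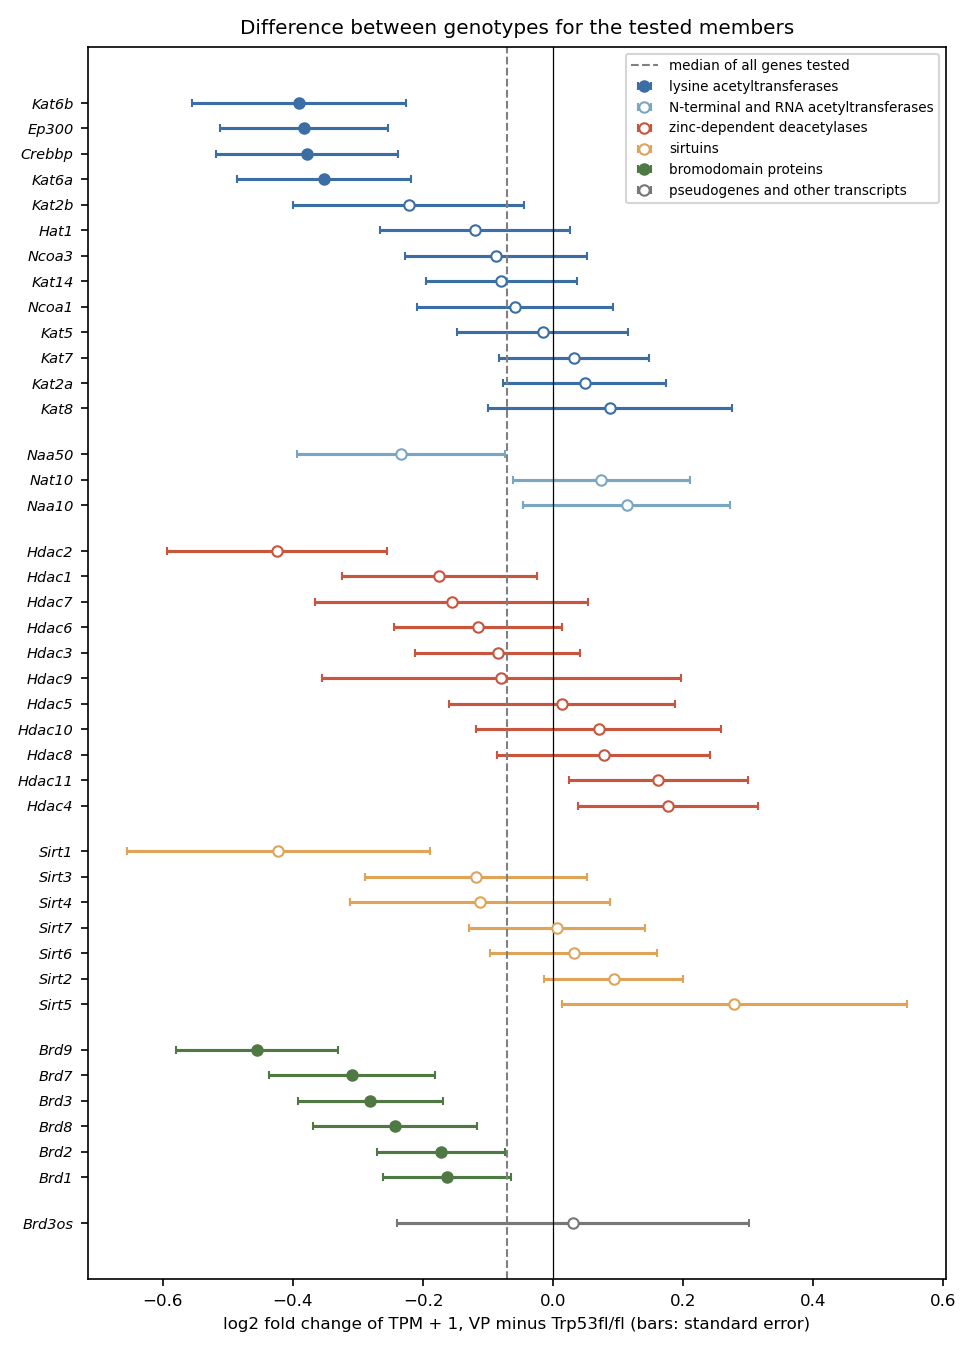
Log2 fold change of TPM + 1, VP minus Trp53fl/fl, for the tested members reported singly, grouped by role, with bars for the standard error (3 tumors a genotype). Filled circles mark the 10 members whose VP tumors all lay below all Trp53fl/fl tumors, which are bromodomain proteins or lysine acetyltransferases, and the dashed line is the median of all genes tested at -0.07.

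How many members stood apart depended on single tumors and on scaling. The count at an unadjusted p under 0.05, of 42 members, was 2, 1 and 9 without Trp53fl/fl replicate 1, 2 or 3. It was 2, 4 and 2 without VP replicate 1, 2 or 3. Of all genes, 4.41%, 5.81% and 10.9%, then 6.30%, 4.97% and 7.20%, were lower at that level with the same tumors left out. After median-of-ratios rescaling the count was 2 of 42, where 4.83% of all genes were lower at that level, so the share was no larger than in all genes. Under that scaling 1282 genes lay wholly below and 1457 wholly above in VP tumors, against 2011 and 911 without it. Sirt2 and Hdac4 then lay wholly above, and of the 10 members 7 remained without overlap (Brd1, Brd3, Brd9, Ep300, Crebbp, Kat6a and Kat6b), where 8.48% of all genes lay wholly below. Fold changes also moved with transcript length. From the shortest to the longest quartile of annotated transcripts, the share of all genes lying wholly below in VP tumors was 7.22%, 9.71%, 14.6% and 21.5%, and the share lying wholly above was 9.09%, 7.73%, 4.45% and 2.88%. The 10 lower members had a median longest transcript of 5285.5 bases against 3271.5 bases for the other 32, and 7 of the 10 were in the longest quartile, which held 16 tested members. Spearman's rho between length and fold change was -0.22 over 14735 genes and -0.43 over the 42 members, a description across genes that share the same 6 libraries. After centring within length quartiles, an alternative chosen after seeing the data, Brd9, Ep300, Crebbp and Kat6b remained without overlap, where 7.79% of all genes lay wholly below. The part of transcript length in these differences was otherwise not tested.

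**Figure D2:**
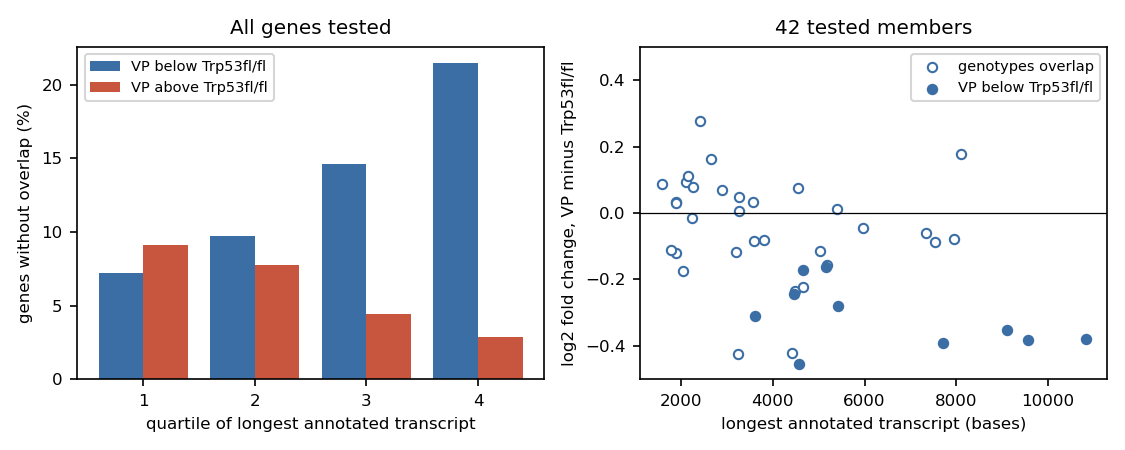
Left, the percentage of all genes tested whose VP tumors all lay below (blue) or all above (red) the Trp53fl/fl tumors, by quartile of the longest annotated transcript. Right, log2 fold change (VP minus Trp53fl/fl) against that length in bases for the 42 tested members, with the 10 non-overlapping members filled. The share lying below grew from 7.22% to 21.5% with length.

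Of the 13 lysine acetyltransferases, 10 had negative and 3 positive fold changes, with a median of -0.09, where 9187 of all 15117 genes were negative. In VP tumors 4 of the 13 lay wholly below (30.77%, against 13.3% of all genes). Summed over the class, they gave 287.5 to 294.6 TPM in the Trp53fl/fl tumors and 255.8 to 288.1 TPM in VP tumors.

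Kat2b (ENSMUSG00000000708, chromosome 17 from 53566861 to 53672720, GRCm38), which encodes PCAF, was at 10.75, 14.29 and 9.87 TPM in Trp53fl/fl tumors against 10.12, 10.86 and 8.33 TPM in VP tumors. The genotypes overlapped, since 2 VP tumors lay above the lowest Trp53fl/fl tumor, and only Trp53fl/fl replicate 2 stood clear of the rest. Means were 11.6 ± 2.34 and 9.77 ± 1.30 TPM (SD, n = 3 each). The log2 fold change of -0.22 had a 95% interval from -0.64 to 0.20 (limma adjusted p = 0.614), and it was -0.08 without Trp53fl/fl replicate 2. Kat2a (ENSMUSG00000020918, chromosome 11 from 100704746 to 100712465), which encodes GCN5, was at 32.07, 29.59 and 32.84 TPM against 30.61, 37.57 and 30.06 TPM. All VP tumors but replicate 2, which lay above every Trp53fl/fl tumor, were within the Trp53fl/fl range, and the fold change of 0.05 (95% interval -0.25 to 0.34) turned to -0.05 without VP replicate 2 and to -0.16 after epithelial centring.

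Kat2a was the more abundant paralog in all 6 tumors, at 2.07 to 3.61 times the TPM of Kat2b. The log2 ratio of Kat2b to Kat2a, which a common factor on all TPM of a tumor leaves unchanged, was -1.58, -1.05 and -1.73 in the Trp53fl/fl tumors. In the VP tumors it was -1.60, -1.79 and -1.85. Quantile normalization and centring within length quartiles can shift the paralogs by different amounts, and the ratio was not computed under them. The means of -1.45 ± 0.36 and -1.75 ± 0.13 (SD, n = 3 each) differed by -0.29 (exact permutation test, two-sided, p = 0.2, where 0.1 is the smallest p this design allows). Without Trp53fl/fl replicate 2 the difference was -0.09.

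**Figure D3:**
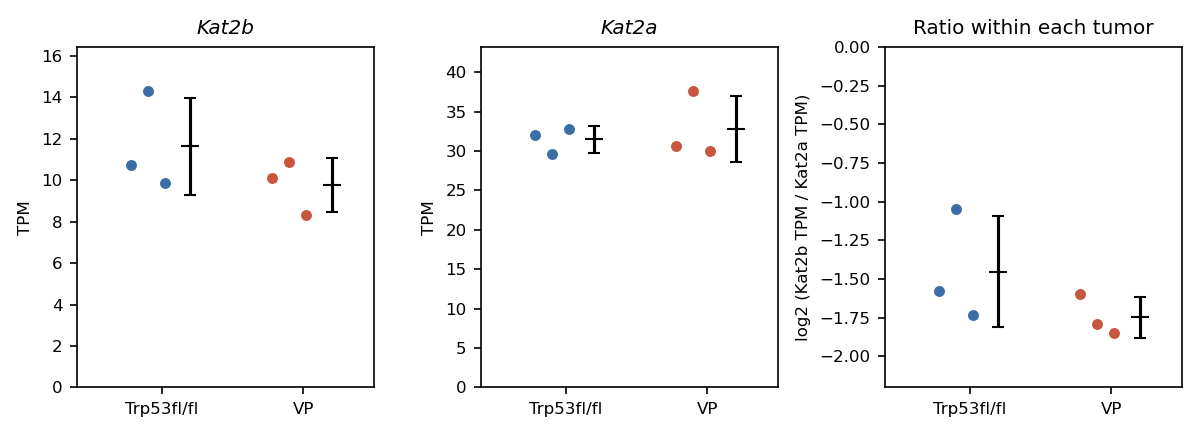
TPM of Kat2b (left) and Kat2a (middle) and the log2 ratio of Kat2b to Kat2a (right) in each tumor by genotype, with the mean and SD of 3 tumors. Both genes overlapped between the genotypes, and the ratio was lower than -1 in all 6 tumors.

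The paralogs p300 and CBP, the coactivators that acetylate histone H3 at enhancers and also acetylate p53 itself, were both lower in VP tumors without overlap. Ep300 (ENSMUSG00000055024, chromosome 15 from 81585351 to 81652077) was at 24.24, 28.78 and 24.43 TPM in Trp53fl/fl tumors against 19.74, 21.36 and 17.60 TPM in VP tumors. Its means were 25.8 ± 2.57 and 19.6 ± 1.89 TPM (SD, n = 3 each), which gave a log2 fold change of -0.38 ± 0.13 (SE, limma adjusted p = 0.340). Crebbp (ENSMUSG00000022521, chromosome 16 from 4081328 to 4213997) was at 7.85, 8.40 and 7.45 TPM against 5.56, 6.54 and 5.47 TPM. The means of 7.90 ± 0.48 and 5.86 ± 0.59 TPM (SD, n = 3 each) gave the same fold change of -0.38 ± 0.14 (SE, limma adjusted p = 0.358). Ep300 was thus present at a higher level than Crebbp in every tumor, and the VP to Trp53fl/fl ratio of mean TPM was 0.758 for Ep300 and 0.741 for Crebbp.

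The same held for MOZ and MORF, the MYST family acetyltransferases that modify histone H3 in progenitor cells. Kat6a, which encodes MOZ (ENSMUSG00000031540, chromosome 8 from 22859535 to 22943259), was at 20.71, 23.63 and 18.38 TPM in Trp53fl/fl tumors against 16.17, 17.22 and 14.91 TPM in VP tumors. Kat6b, which encodes MORF (ENSMUSG00000021767, chromosome 14 from 21481434 to 21672478), was at 5.92, 6.46 and 5.27 TPM against 4.61, 4.66 and 3.52 TPM. All VP tumors lay below all Trp53fl/fl tumors for both genes. The log2 fold changes were -0.35 ± 0.13 for Kat6a (SE, limma adjusted p = 0.366) and -0.39 ± 0.16 for Kat6b (SE, limma adjusted p = 0.395). The 3 other MYST enzymes gave fold changes of -0.02 for Kat5 (TIP60), 0.03 for Kat7 (HBO1) and 0.09 for Kat8 (MOF, which acetylates histone H4 lysine 16), each with overlapping tumors. Kat5 shares 426 exonic bases with Rnaseh2c on the other strand, and the sources used here do not state whether strand was used in the counting.

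The remaining lysine acetyltransferases overlapped between the genotypes as well. Hat1, which acetylates newly made histone H4, was at 34.16 to 37.16 TPM against 26.74 to 37.99 TPM, with the lowest value in VP replicate 3. Kat14, the second catalytic subunit of ATAC, was at 26.61 to 28.92 TPM against 23.19 to 27.48 TPM. The nuclear receptor coactivators Ncoa1 and Ncoa3, also called SRC-1 and SRC-3, had log2 fold changes of -0.06 and -0.09. Outside the lysine enzymes, Naa50, which acetylates protein N-termini, was at 45.68, 46.29 and 34.05 TPM against 35.11, 40.01 and 31.12 TPM. Trp53fl/fl replicate 3 lay among the VP tumors, and the fold change was -0.23 (limma adjusted p = 0.558), or -0.37 without that tumor and -0.15 without VP replicate 3. Its partner Naa10, the catalytic subunit of NatA, ranged from 80.75 to 121.14 TPM (log2 fold change 0.11), and Nat10, which acetylates cytidines in RNA, from 12.42 to 15.90 TPM (0.07).

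Of the 11 zinc-dependent deacetylases, 6 had negative and 5 positive fold changes, with a median of -0.08, and in none did the genotypes separate as deposited. The class summed to 345.3 to 390.3 TPM in the Trp53fl/fl tumors and 307.0 to 353.8 TPM in VP tumors. Hdac2, a class I enzyme of the SIN3, NuRD and CoREST corepressors, was the one with an unadjusted p under 0.05, at 69.61, 77.32 and 50.11 TPM against 45.02, 47.98 and 50.81 TPM. Replicates 1 and 2 of Trp53fl/fl stood high, whereas replicate 3 lay just under the highest VP tumor (log2 fold change -0.43 ± 0.17, SE, limma adjusted p = 0.381). Its close paralog Hdac1, the more abundant of the pair in all 6 tumors, was at 137.23, 115.14 and 151.88 TPM against 102.23, 120.06 and 135.42 TPM. The Hdac1 tumors overlapped (log2 fold change -0.18, 95% interval -0.53 to 0.18). The value was -0.28 and -0.08 without Trp53fl/fl replicate 2 or 3, and -0.07 and -0.27 without VP replicate 1 or 3. Its pseudogene Hdac1-ps, listed at 0 to 0.16 TPM, could share reads with Hdac1. Hdac3, the NCoR enzyme, was at 61.25 to 81.44 TPM against 64.13 to 65.91 TPM, and Hdac8 at 6.30 to 9.08 TPM against 7.51 to 8.63 TPM.

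The largest positive fold changes among the deacetylases belonged to Hdac4 and Hdac11. Hdac4, a class IIa protein that shuttles between nucleus and cytoplasm, was at 8.43, 7.32 and 6.65 TPM in Trp53fl/fl tumors against 8.60, 8.82 and 8.19 TPM in VP tumors. Trp53fl/fl replicate 1 lay above the lowest VP tumor, and the fold change was 0.18 (limma adjusted p = 0.610), or -0.03 after epithelial centring. It lay wholly above in VP tumors after median-of-ratios rescaling (0.24), quantile normalization (0.27) and centring within length quartiles (0.35). Hdac11, a fatty acid deacylase and the sole class IV enzyme, was at 17.52, 20.46 and 19.20 TPM against 24.62, 18.78 and 21.16 TPM. Its tumors interleaved, and the fold change of 0.16 (limma adjusted p = 0.632) was -0.05 after epithelial centring, and it was 0.11, 0.06 and 0.25 without Trp53fl/fl replicate 1, VP replicate 1 or VP replicate 2. Hdac6, the cytoplasmic tubulin deacetylase, was at 12.33, 10.46 and 12.92 TPM against 10.77, 10.87 and 10.97 TPM, so that the VP tumors differed by little among themselves and lay within the Trp53fl/fl range (log2 fold change -0.12). The other class II enzymes Hdac5, Hdac7, Hdac9 and Hdac10 gave fold changes of 0.01, -0.16, -0.08 and 0.07, and Hdac9 had the lowest level of the deacetylases at 0.81 to 2.13 TPM.

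The 7 sirtuins divided into 3 with negative and 4 with positive fold changes around a median of 0.01, and none separated the genotypes as deposited. Sirt2 lay wholly above in VP tumors after median-of-ratios rescaling (0.16), quantile normalization (0.13) and centring within length quartiles (0.12). They summed to 180.2 to 186.6 TPM in the Trp53fl/fl tumors and 174.7 to 193.6 TPM in VP tumors. Sirt1, a nuclear enzyme that deacetylates p53, was at 7.66, 8.42 and 4.58 TPM against 4.40, 4.26 and 5.66 TPM. Trp53fl/fl replicates 1 and 2 lay above the others, with replicate 3 inside the VP range, and the fold change of -0.42 had a 95% interval from -0.97 to 0.13 (limma adjusted p = 0.482). Sirt5, the mitochondrial desuccinylase, was at 9.49, 12.08 and 10.33 TPM against 12.40, 8.97 and 19.76 TPM. VP replicate 3 stood highest, and VP replicate 1 lay just above every Trp53fl/fl tumor. The fold change of 0.28 became -0.003 without VP replicate 3 and 0.53 without VP replicate 2. The nucleolar Sirt7 was the most abundant sirtuin at 67.42 to 90.95 TPM (log2 fold change 0.01), followed by the cytoplasmic Sirt2 at 35.06 to 42.59 TPM (0.09). The ranges of these 2 enzymes did not meet in any tumor. Sirt6 gave 0.03, and the mitochondrial Sirt3 and Sirt4 gave -0.12 and -0.11. Sirt2 and Sirt3 overlap exons of genes on the other strand, by 42 bases of Nfkbib and by 329 and 418 bases of Psmd13 and Ric8a.

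The bromodomain proteins described here are Brd1, Brd2, Brd3, Brd7, Brd8 and Brd9. In all 6 of them every VP tumor lay below every Trp53fl/fl tumor, as in 13.3% of all genes, with log2 fold changes from -0.46 to -0.16. All 6 belong to the 10 members without overlap, so this count is not a share of the class. None of the 6 passed the adjustment. After median-of-ratios rescaling all 6 kept a negative fold change and 3 of them (Brd1, Brd3 and Brd9) were without overlap, where 8.48% of all genes lay wholly below. After centring within length quartiles 5 were negative, of which Brd2 was near 0 at -0.000773. Brd9 alone was then without overlap, where 7.79% of all genes lay wholly below.

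Brd9 (ENSMUSG00000057649, chromosome 13 from 73937811 to 73960895), whose GC-rich promoter is printed above and whose protein belongs to the non-canonical BAF remodeler, was at 23.37, 25.35 and 23.40 TPM in Trp53fl/fl tumors against 16.42, 15.89 and 19.67 TPM in VP tumors. All VP tumors lay below all Trp53fl/fl tumors, with VP replicate 3 the closest. Means were 24.04 ± 1.14 and 17.3 ± 2.05 TPM (SD, n = 3 each), which gave a log2 fold change of -0.46 ± 0.12 (SE, limma adjusted p = 0.292). Over all alternatives the fold change ranged from -0.66 to -0.38 and the adjusted p from 0.0844 to 0.621. Its paralog Brd7, a subunit of the PBAF remodeler and a known partner of p53, was at 57.61, 55.90 and 46.93 TPM against 43.71, 38.50 and 46.62 TPM. Here the highest VP tumor came within 1 TPM of the lowest Trp53fl/fl tumor (log2 fold change -0.31 ± 0.13, SE, limma adjusted p = 0.390).

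Brd3 and Brd2 belong to the BET family, whose tandem bromodomains bind acetylated histone H4. Brd3 was at 26.99, 28.59 and 30.86 TPM in Trp53fl/fl tumors against 24.76, 21.88 and 23.97 TPM in VP tumors, separate by more than 2 TPM (log2 fold change -0.28 ± 0.11, SE, limma adjusted p = 0.382). Brd2 had the highest level of the bromodomain members, at 137.53, 131.77 and 130.06 TPM against 113.47, 112.86 and 128.30 TPM. VP replicate 3 came close to the Trp53fl/fl tumors, and the fold change was -0.17 (limma adjusted p = 0.496), or -0.000773 after centring within length quartiles. Brd2 shares 313 exonic bases with H2-DMa, an antigen-presentation gene on the other strand at a mean of 24.6 TPM.

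Brd8, a subunit of the TIP60 complex, was at 24.43, 25.39 and 21.73 TPM against 20.87, 21.42 and 17.75 TPM, lower in VP without overlap but by less than 1 TPM at the closest pair (log2 fold change -0.24, limma adjusted p = 0.462). Brd1, a scaffold of the HBO1 and MOZ complexes, had nearly identical levels in the control tumors. It was at 36.28, 36.34 and 36.04 TPM in Trp53fl/fl tumors against 30.58, 32.39 and 33.80 TPM in VP tumors (log2 fold change -0.16, limma adjusted p = 0.513), a difference that became 0.008 after centring within length quartiles. The gene Brd3os lies beside Brd3 on the other strand, is annotated as protein coding and is not a bromodomain gene. It was at 0.45 to 1.52 TPM without separation. Below the filter were Brd8dc at 0.06 to 0.33 TPM, Hdac1-ps, Kat6b-ps1 at 0 to 0.02 TPM, and Kat2b-ps and Kat6b-ps2, which were listed at 0 in all 6 tumors.

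**Figure D4:**
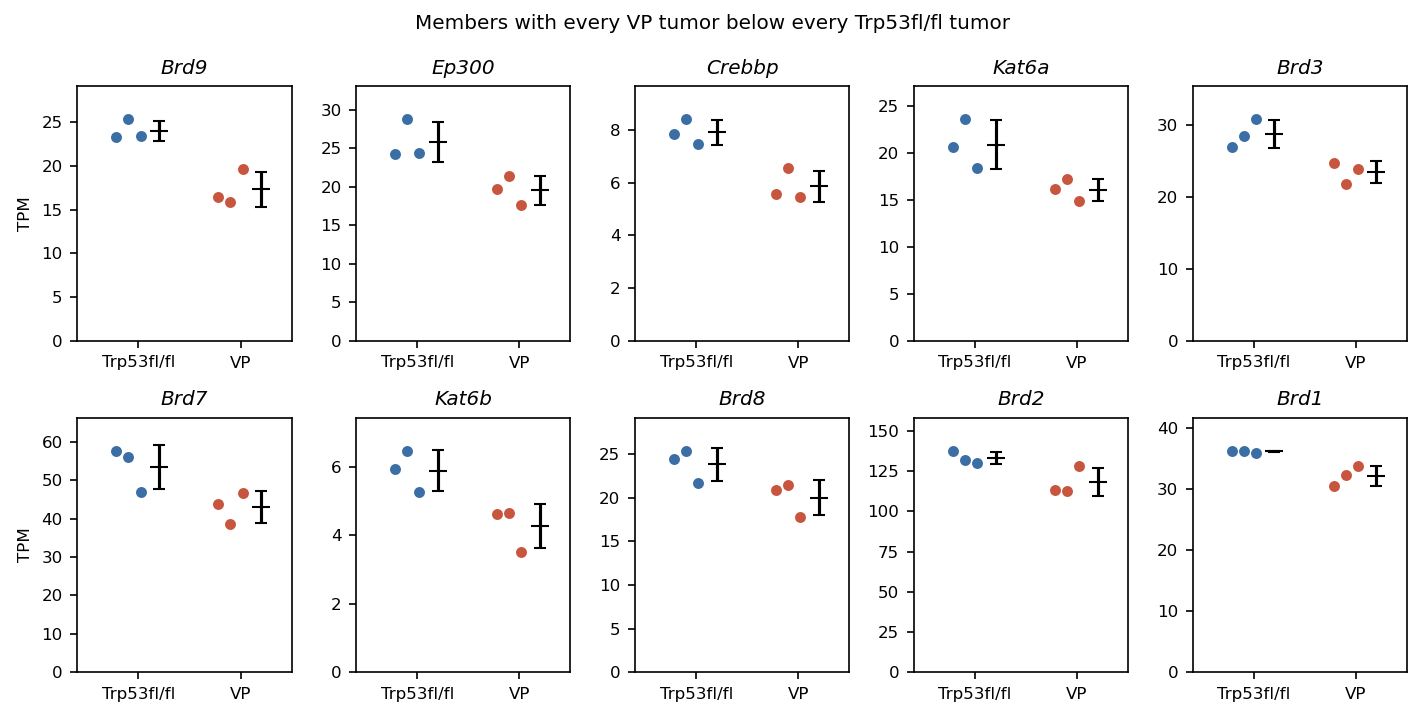
TPM in each tumor for the 10 members whose VP tumors (red) all lay below all Trp53fl/fl tumors (blue), with the mean and SD of 3 tumors beside the points and each axis starting at 0. Brd9 separates at 19.67 and 23.37 TPM, whereas Brd7 comes close to meeting at 46.62 and 46.93 TPM.

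Genes related to the members, as partners, as further bromodomain or acetyltransferase genes, or as genes of NAD supply and use, were then counted in lists. No gene in any of the 7 lists passed the adjustment. Of all genes tested, 9187 of 15117 had negative fold changes, against which the sign counts below can be read. The widest shift was in 24 tested bromodomain genes outside the Brd family, of which 21 had negative fold changes around a median of -0.34. In 15 of these every VP tumor lay below every Trp53fl/fl tumor (62.5%, against 13.3% of all genes). The count was 12 after median-of-ratios rescaling (8.48% of all genes) and 6 after centring within length quartiles (7.79% of all genes). Taf1, the largest subunit of TFIID, was at 22.11, 25.67 and 19.44 TPM against 15.38, 16.12 and 14.32 TPM (log2 fold change -0.52 ± 0.14, SE, limma adjusted p = 0.2795). The 3 that went the other way were Sp110, Sp100 and Sp140, chromatin readers induced by interferon, and all 3 lay wholly above in VP tumors. Sp110 was at 9.67, 9.12 and 11.27 TPM against 16.79, 18.80 and 13.49 TPM (log2 fold change 0.65 ± 0.16, SE, limma adjusted p = 0.269). Sp100 and Sp140, named after their values were seen, gave 0.60 and 0.71. These genes lie in a family with close copies, so reads may have been split among them. Leukocyte markers summed to 305.9 to 369.4 TPM in the Trp53fl/fl tumors and 299.3 to 427.3 TPM in VP tumors, and their part in the level of these genes was not tested.

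The class I deacetylase complexes had 28 of 34 genes with negative fold changes (median -0.12), and 10 lay wholly below in VP tumors (29.41%, against 13.3% of all genes). The median was -0.08, -0.21 and -0.07 without Trp53fl/fl replicate 1, 2 or 3, with 25, 30 and 21 negative. Rcor3 of CoREST was at 13.29, 11.44 and 11.26 TPM against 9.52, 6.90 and 7.67 TPM (log2 fold change -0.53), and Sap30 of SIN3 at 22.09, 16.76 and 22.64 TPM against 15.91, 14.23 and 11.08 TPM (-0.55). In the TIP60, MOZ, HBO1 and MOF complexes 23 of 29 were negative (median -0.12) and 6 lay wholly below and 1 wholly above, with the acetyl-lysine reader Yeats4 at -0.37 and the scaffold Epc1 at -0.32. SAGA and ATAC, the complexes of Kat2a and Kat2b, had 17 of 22 negative (median -0.15), and 3 lay wholly below and 1 wholly above. The 2 SAGA and ATAC genes with the smallest p-values, Mbip at -0.36 and Supt20 at -0.28, did not reach an unadjusted p of 0.05. Of the 11 P-TEFb genes 8 were negative (median -0.17) and 2 lay wholly below, with Aff4 at -0.41 and Ccnt2 at -0.51, and the median was -0.11 without Trp53fl/fl replicate 2.

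In the remaining acetyltransferase list 14 of 18 were negative (median -0.27), led by the tubulin acetyltransferase Atat1 at 15.3 ± 1.35 against 10.8 ± 1.01 TPM (SD, n = 3 each) and by Naa30, the catalytic subunit of NatC, at 15.3 ± 2.10 against 11.03 ± 0.93 TPM (SD, n = 3 each). Without Trp53fl/fl replicate 2 the median of this list was -0.15, with 10 negative and 8 positive. The genes of NAD supply and use were the one list with a positive median, 0.09, and 9 of 13 were positive. In this list 3 lay wholly below (23.08%, against 13.3% of all genes) and 1 wholly above. The NAD synthetase Nadsyn1 was at 10.58, 13.77 and 12.78 TPM in Trp53fl/fl tumors against 14.73, 21.19 and 18.06 TPM in VP tumors, wholly above (log2 fold change 0.50, limma adjusted p = 0.341). Parp1, which consumes NAD at DNA breaks, was at 53.97, 60.04 and 60.54 TPM against 39.47, 45.29 and 47.22 TPM, wholly below (log2 fold change -0.40, limma adjusted p = 0.302). The median of the NAD list was 0.05 without Trp53fl/fl replicate 2 and -0.12 after epithelial centring, whereas the medians of the other 6 lists were negative under every scaling tried.

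**Figure D5:**
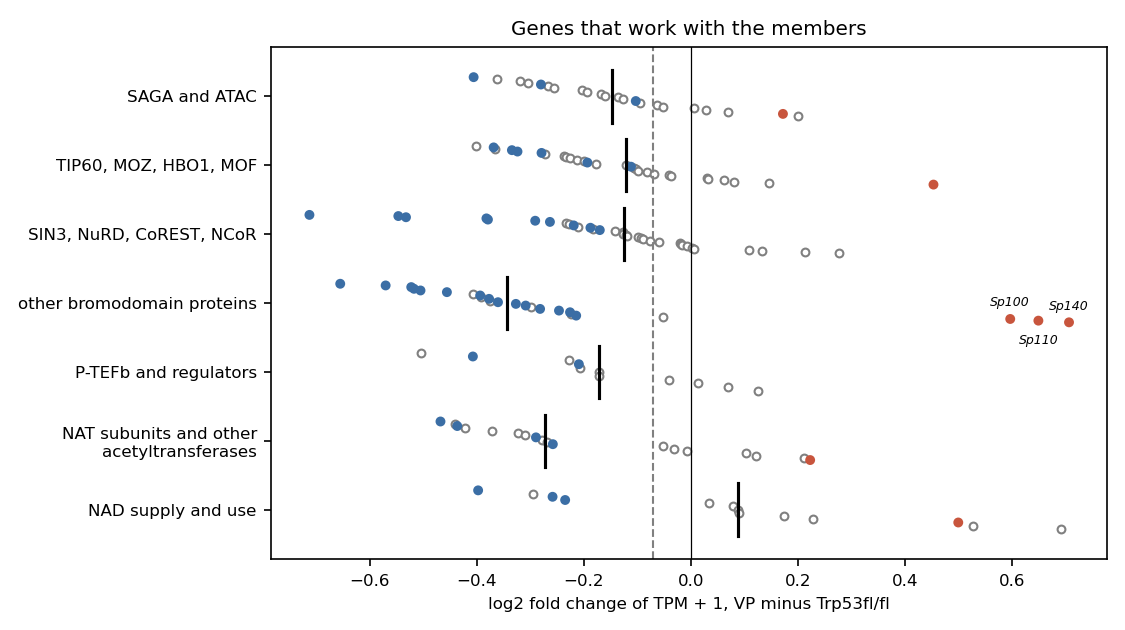
Log2 fold change of TPM + 1 (VP minus Trp53fl/fl) of each tested gene in 7 lists of genes related to the members. Vertical bars mark the list medians, and the dashed line marks the median of all genes tested at -0.07. Blue and red circles mark genes whose VP tumors all lay below or all above the Trp53fl/fl tumors. The other bromodomain proteins lie furthest to the left, at a median of -0.34, apart from the 3 Sp genes on the right.

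Summed neutrophil and epithelial markers separated the genotypes, whereas the sums of the other marker lists overlapped. All 12 neutrophil markers had positive fold changes and 9 lay wholly above, where 6.03% of all genes did. They summed to 500.9 to 1117 TPM in the Trp53fl/fl tumors and 1626 to 2692 TPM in VP tumors. Of 12 epithelial markers, 11 had positive fold changes and 4 lay wholly above, with sums of 10780 to 11280 TPM against 12320 to 13470 TPM. Of 12 proliferation markers, 11 had negative fold changes (median -0.14), and they summed to 714.3 to 923.4 TPM against 617.6 to 780.6 TPM. Fibroblast markers (9 of 10 tested) summed to 903.0 to 1018 TPM against 774.9 to 1123 TPM, and smooth muscle markers (10 of 10) to 561.4 to 895.7 TPM against 465.0 to 1451 TPM. Endothelial markers (10 of 10) summed to 129.3 to 155.6 TPM against 148.9 to 167.1 TPM, and enteric neuron and glia markers (4 of 10) to 18.91 to 25.33 TPM against 18.60 to 33.30 TPM. The part of cell composition in the lower levels of the bromodomain proteins and acetyltransferases was not tested.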

How the data were processed

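RNA of 6 AOM/DSS-induced colorectal tumors, 3 per genotype, was sequenced. The authors deposited TPM per gene with 2 decimals, without pooling. HISAT2, StringTie and the build mm9 are named in the submitters' processing notes, and their versions, parameters and the annotation are not given in the sources used here. Because TPM are fixed to a common total (999964 to 1000067 per tumor), each value depends on all others, read counts and depth are unknown, and no counting error can be attached. No 2 columns were identical.

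From the deposited TPM, log2(TPM + 1) was fitted with limma 3.58.1 in R 4.3.3 (genotype term, empirical Bayes with trend, Benjamini-Hochberg adjustment over the 15117 genes that reached 1 TPM in 3 or more tumors). On values simulated for that comparison with 200 changed genes, 88.6% of the 2-fold and 100% of the 4-fold changes were recovered, with 12 false among 200 calls. The simulated noise was normal and independent between genes, with each SD drawn toward the median SD, and weakly expressed genes were not changed. No change under 2-fold was simulated, so recovery at the size of the members' fold changes (-0.46 to 0.28) was not measured. The paralog ratio was tested by exact permutation in Python 3.11.15 with scipy 1.17.1.

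Coordinates and longest transcripts came from GENCODE M21 (GRCm38) by gene ID (52147 of 54167 IDs matched), which is not the build of the notes, and promoters from RefSeq (GRCm38.p6). Values in every tumor were given for Kat2b, Kat2a, Ep300, Crebbp and members with an unadjusted p under 0.05 or no overlap, then by p up to 20 members. A tested member is not reported here singly. Of each list, the 2 genes with the smallest p were named. The members and lists were chosen with earlier results of these data known, so lists are described by counts and medians without a test. Alternatives were a pseudocount of 0.1, no filter, a minimum mean of 5 TPM, quantile normalization, rescaling by median of ratios, centring on epithelial markers, a replicate block, no trend, each tumor left out, and, added after seeing the data, centring within length quartiles.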

Additional observations from a re-analysis of the deposited data

How the results depend on the processing

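No member passed the adjustment under any of the 15 alternatives. Over all genes, the 25 calls became 7 without a filter, 47 after epithelial centring, 10 with the replicate number as a block, and 6 to 28 with a tumor left out. Members at an unadjusted p under 0.05 went from 8 to 2 (median-of-ratios, where 4.83% of all genes were lower at that level), 2 (quantile, 5.37%) and 17 (epithelial centring, 29.85%). The count was 3 (replicate block, 6.78%), 5 (no trend, 8.05%), 2 (length centring, 1 of them higher, 4.65%) and 1 to 9 with a tumor left out (4.41% to 10.9%). Non-overlapping members went from 10 to 9 (median-of-ratios, 7 lower and 2 higher), 10 (quantile, 8 and 2), 18 (epithelial centring) and 6 (length centring, 4 lower and 2 higher). Of all genes, 8.48%, 8.99%, 37.07% and 7.79% lay wholly below under these settings in turn, against 13.3% as deposited. With a tumor left out the count was 12 to 15, of which 10 to 14 lay below. Fewer tumors make separation easier, and 17.04% to 24.18% of all genes then lay wholly below. The members' median went from -0.09 to -0.0315 (median-of-ratios), -0.0200 (quantile), -0.29 (epithelial centring) and 0.00305 (length centring), while epithelial centring moved the median of all genes from -0.07 to -0.28. Directions reversed for Kat2a (-0.16 with epithelial centring, -0.0514 without VP replicate 2, and up to 0.105 with another tumor left out), Hdac4 (-0.0311) and Hdac11 (-0.0462) with epithelial centring, Sirt5 (-0.00323 without VP replicate 3, and up to 0.526 with another left out), and Brd1 (0.0078) and Hdac6 (0.0558) with length centring. The cause of these changes was not tested. Kat2b was negative throughout, from -0.43 to -0.05, and the Kat2b to Kat2a difference from -0.43 to -0.09 (exact p = 0.25 by sign changes within pairs, the smallest that test allows). Replicate numbers did not pair the tumors: deviations of same-numbered tumors correlated at 0.02, -0.05 and 0.02, and 0 of 6 tumors correlated best with its own number. Depth is unknown, and 3 tumors a genotype limit the precision of every value.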
